A study of Homo sapiens with 35 samples.

Results

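Immediate early genes are the transcription factors, phosphatases, secreted ligands and other regulators whose transcripts a cell makes soon after a growth factor signal, without first making new protein. A set of 36 genes was listed by symbol, immediate early genes together with feedback genes of ERK, a kinase in growth factor signalling. An array row that carried 1 gene symbol was found for 34 of them, out of 18404 genes tested in the same way. A gene with several such rows was read from the row whose mean over the 35 arrays was highest. EGR2 and AREG had no such row and were not analysed here. The measured members comprise 7 genes of the AP-1 family (FOS, FOSB, FOSL1, FOSL2, JUN, JUNB and JUND), 3 of the EGR family (EGR1, EGR3 and EGR4), 3 of the NR4A family (NR4A1, NR4A2 and NR4A3), 7 phosphatase and Sprouty genes (DUSP1, DUSP2, DUSP4, DUSP5, DUSP6, SPRY2 and SPRY4), 2 ligands of the EGF receptor family (HBEGF and EREG) and 12 others (IER2, IER3, IER5, CCN1, CCN2, ZFP36, KLF2, KLF6, KLF10, SRF, ARC and MCL1). The rule that chose the members names genes and uses no measured value other than the mean that picks a gene's row. The members and lists were, however, chosen with earlier results of these data known. Member shares set beside those of all genes are therefore descriptions.

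The cells were HCT116, an established human colon carcinoma line, carrying a short hairpin against CDK8 (shCDK8), against CDK19 (shCDK19) or a control hairpin (shControl), with 1 hairpin line for each. RNA was hybridised to Affymetrix HuGene 1.0 ST arrays, 35 in all, in 14 groups that fall into 4 experiments, and all lines were kept in McCoy's 5A with added fetal calf serum. In normal growth there were 3 arrays each of shCDK8, shCDK19 and shControl cells. In the 5-fluorouracil (5FU) experiment there were 2 arrays each of shCDK8, shCDK19 and shControl cells given 5FU, a drug that blocks thymidylate synthase, and 2 of shControl cells given the DMSO vehicle, all at 12 h. In the glucose experiment there were 3 arrays each of shCDK8, shCDK19 and shControl cells in low glucose and 3 of shControl cells in high glucose, all at 24 h. In the hypoxia experiment there were 2 arrays each of shCDK8, shCDK19 and shControl cells held at 1% oxygen for 24 h. Knockdown cells in DMSO or high glucose, and cells of the hypoxia experiment at normal oxygen, were not analysed here, so hypoxia was set against normal growth across experiments. The labels do not say that the arrays of a group came from separate cultures, so the p-values speak of the spread of these arrays alone, part or all of which may be technical. Values are log2 signals, a fold change is a difference of log2 means with its standard error (SE), and a gene was called where the adjusted p from limma's moderated test over all genes was below 0.05.

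Growth factors bind receptors such as that for EGF and drive the RAF, MEK and ERK kinases, and ERK acts through ternary complex factors and SRF on genes such as FOS and EGR1. DUSP phosphatases then remove phosphate from ERK and related kinases, and Sprouty proteins dampen the receptor signal, so that the response limits itself. CDK8 and CDK19 are paralogous kinases of Mediator, the large complex through which transcription factors act on RNA polymerase II.

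SRF binds the CArG box (CC, then 6 bases that are each A or T, then GG), and CREB and ATF factors bind TGACGTCA. RefSeq promoter windows of GRCh38.p14, from 250 bases before a gene's start to 50 after it, were found for 26 of the 36 listed members, in 32 windows. A CArG box was in the windows of 3 members (EGR1, EGR2 and SRF), 9.38% of member windows, and in 1.29% of all 35116 windows. TGACGTCA was in the windows of 3 members (AREG, DUSP1 and JUND), 9.38% of member windows, and in 1.85% of all windows. TGANTCA, a form of the AP-1 site, was in the window of FOSL2, 3.12% of member windows, and in 7.71% of all windows. GCGNGGGCG, the EGR site, was in windows of DUSP2, EGR1, EGR2, KLF2, KLF6, SPRY2, SPRY4 and SRF. It was in 25% of member windows and 9.43% of all windows. Both strands were searched for all 4 motifs, and a match is a description of these letters only. Sites outside the windows were not searched, so a member without a match here may hold one farther from its start. Windows are printed below for the measured members that hold a CArG box, on the plus strand, because EGR1 was called lower in shCDK8 cells in 3 experiments and SRF was called in no comparison of a knockdown line with shControl, and the CArG boxes are in capitals. The EGR1 window lies at chr5:138465229-138465528 and that of SRF, 1 of 2 windows for that gene, at chr6:43171019-43171318. Counted from the start, the CArG boxes begin at positions -105 and -83 in EGR1 and -30 and -10 in SRF.
EGR1: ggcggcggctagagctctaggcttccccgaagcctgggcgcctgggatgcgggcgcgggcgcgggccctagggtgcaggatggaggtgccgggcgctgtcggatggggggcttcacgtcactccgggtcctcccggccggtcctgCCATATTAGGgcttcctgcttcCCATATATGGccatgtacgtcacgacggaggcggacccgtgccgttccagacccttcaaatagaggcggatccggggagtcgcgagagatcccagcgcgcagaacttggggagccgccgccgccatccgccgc
SRF: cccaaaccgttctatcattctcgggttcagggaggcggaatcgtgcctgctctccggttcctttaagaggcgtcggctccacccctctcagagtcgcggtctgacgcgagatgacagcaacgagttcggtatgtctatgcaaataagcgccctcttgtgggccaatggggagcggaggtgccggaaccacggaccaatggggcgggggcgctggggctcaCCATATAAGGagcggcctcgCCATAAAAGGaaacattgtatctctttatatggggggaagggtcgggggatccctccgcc
The windows of DUSP1 and JUND, both lower in shCDK8 cells in hypoxia, are printed on the minus strand with TGACGTCA in capitals. The DUSP1 window lies at chr5:172771146-172771445 and the JUND window at chr19:18281573-18281872, and TGACGTCA begins at position -125 in DUSP1 and -200 in JUND.
DUSP1: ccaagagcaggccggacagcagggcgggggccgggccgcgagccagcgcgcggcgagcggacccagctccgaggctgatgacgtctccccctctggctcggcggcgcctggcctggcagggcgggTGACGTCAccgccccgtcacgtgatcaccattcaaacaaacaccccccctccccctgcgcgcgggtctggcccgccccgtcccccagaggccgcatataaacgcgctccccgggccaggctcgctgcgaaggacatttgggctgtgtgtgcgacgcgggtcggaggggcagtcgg
JUND: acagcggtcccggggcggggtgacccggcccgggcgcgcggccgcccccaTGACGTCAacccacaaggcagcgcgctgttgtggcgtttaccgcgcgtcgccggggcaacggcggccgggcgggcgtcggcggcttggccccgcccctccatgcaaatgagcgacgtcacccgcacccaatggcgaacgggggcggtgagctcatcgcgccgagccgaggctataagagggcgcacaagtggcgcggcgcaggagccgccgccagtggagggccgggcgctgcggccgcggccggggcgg

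The row that holds CDK8, which also carries the symbol ADRA1B, differed in shCDK8 from shControl cells by -2.12 ± 0.24 in growth, -2.74 ± 0.16 in 5FU, -2.13 ± 0.11 in low glucose and -2.02 ± 0.20 in hypoxia (log2 ± SE, 3, 2, 3 and 2 arrays a group), and CDK19 differed in shCDK19 cells by -1.50, -1.08, -1.56 and -1.10, the last with an adjusted p of 0.0948. The 75th percentile of an array's log2 values lay between 8.96 and 9.25, the lowest value in the files was a floor of 4.32 held by 8.48% to 9.97% of an array's rows, and no member was at the floor on any array. Arrays of a group correlated at 0.987 to 0.998 over all rows, except the shControl hypoxia pair, the control of every hypoxia comparison, at 0.976, and its replicate 1 had the lowest 75th percentile (8.96). Hypoxia over growth called 18 members and 24.7% of all genes without that array and 25 and 65.7% without replicate 2. With 2 or 3 arrays a group, the arrays of 2 compared groups did not overlap in 30.1% to 63.7% of all genes, depending on the comparison. Of the 6 epithelial markers KRT8, KRT18, KRT19, EPCAM and CDH1 averaged 13.13, 12.70, 12.34, 11.97 and 10.90, and VIL1 averaged 6.43. The mean of that list was 10.75 in shCDK8 growth cells, against 11.07 in shControl growth cells, and 10.96 in shCDK8 hypoxia cells, against 11.33 in shControl hypoxia cells, and reached 11.54 in shCDK19 low glucose cells. The summed leukocyte list averaged 6.49 in shCDK8 growth and 6.52 in shCDK8 hypoxia cells and 5.41 to 5.78 in the other groups (LYZ, 1 of its genes, spanned 4.72 to 10.74), and the part of either list in the results below was not tested. PTPRC, which defines leukocytes, was at the floor on 13 arrays. Of the fibroblast markers LUM and DCN were at the floor on 33 and 23 arrays, while COL1A1 averaged 8.74 and COL1A2, COL3A1 and PDGFRB averaged 6.98, 6.94 and 6.65, on no array at the floor, and that list averaged 6.16 to 6.67 across groups. In bulk RNA, fewer cells of a type and less RNA per cell cannot be told apart.

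**Figure D1:**
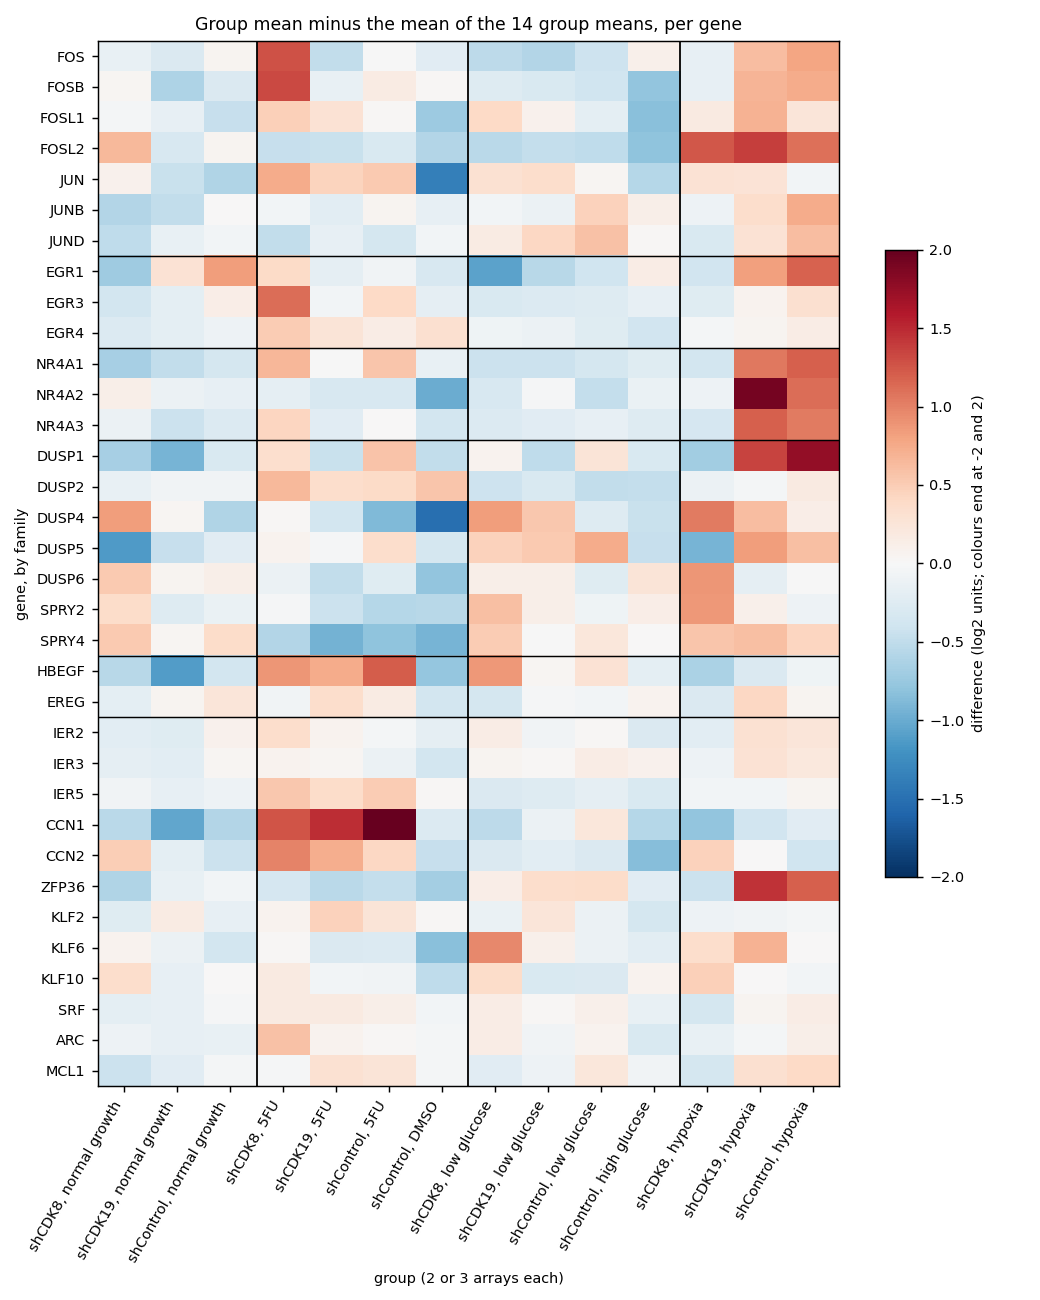
Colour gives each member's group mean on the log2 scale minus the mean of its 14 group means, with 1 column per group and 1 row per member, by family, and colours end at 2 log2 units either way. The NR4A genes, DUSP1 and ZFP36 stand out as high in shCDK19 and shControl hypoxia and not in shCDK8 hypoxia, and CCN1, HBEGF and JUN as high in the 5FU groups.

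Each stress was first set against its reference in the control cells. In hypoxia the orphan nuclear receptors of the NR4A family, the MAP kinase phosphatase DUSP1 and the AP-1 genes were higher than in normal growth. Those arrays come from separate experiments, so hypoxia and experiment cannot be told apart there. After 5FU the matricellular gene CCN1, the ligand HBEGF and JUN were higher than in DMSO. In low glucose the ERK phosphatase DUSP5 and CCN1 were higher and EGR1, FOS and DUSP6 lower than in high glucose.

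In shControl cells, hypoxia over growth called 21 members higher and 1 lower of 34, while 21.1% of all genes tested were called higher and 26.7% lower, 47.8% in either direction, and 57.4% of the genes as bright as the dimmest member. The median member difference was 0.35, against 0.06 over all genes. DUSP1 was at 11.57 and 11.67 in hypoxia, against 9.63, 9.57 and 9.47 in growth, with a difference of 2.06 ± 0.094 (adjusted p 1.04e-13, limma). NR4A1, an orphan nuclear receptor, was at 10.49 and 10.62 in hypoxia, against 9.07, 9.03 and 8.96 in growth (1.54 ± 0.10, adjusted p 3.61e-11). Neither gene's arrays overlapped between the groups. NR4A3 rose by 1.32 and NR4A2 by 1.28, and all 7 AP-1 genes were called higher, FOSL2 by 1.05, FOSB by 1.03, JUNB by 0.74 and FOS by 0.72. ZFP36, which destabilises AU-rich messages, rose by 1.24. EREG, an EGF receptor ligand, was the 1 member called lower, with a difference of -0.19 ± 0.055 (adjusted p 0.00611). These arrays come from separate experiments, and experiment and hypoxia cannot be told apart in this comparison. With only the compared groups in the fit, 14 members were called.

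After 5FU, 14 members were called higher and 1 lower in shControl cells, while 7.17% of all genes tested were called higher and 4.29% lower, 11.5% in either direction, and 17.9% of those as bright as the dimmest member. The median member difference was 0.34, against -0.02 over all genes. HBEGF was at 11.07 and 11.08 in 5FU, against 9.02 and 9.17 in DMSO (1.98 ± 0.084, adjusted p 0.00151). CCN1 was at 10.82 and 10.85 in 5FU, against 8.46 and 8.44 in DMSO (adjusted p 0.00151). In neither did the groups overlap. The phosphatases DUSP1, DUSP5, DUSP4 and DUSP6 were called higher by 1.07, 0.69, 0.62 and 0.54, as were FOSL1 by 0.75, EREG by 0.53 and the transcription factors KLF6 by 0.55 and KLF10 by 0.44. JUND was called lower, with a difference of -0.29 ± 0.052 (adjusted p 0.0245). FOS, at 8.73 and 8.47 in 5FU, against 8.52 and 8.22 in DMSO, and EGR1, at 11.68 and 11.76, against 11.65 and 11.29, were not called (adjusted p 0.773 and 0.503). Leaving out 1 array gave 3 to 13 calls in place of 15, with CCN1, DUSP4 and HBEGF called each time. The counts of 3 and 5 came from leaving out shControl 5FU replicate 1 or 2.

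Low glucose called 19 members higher and 7 lower in shControl cells, while 13.9% of all genes tested were called higher and 17.3% lower, 31.2% in either direction, and 45% of those as bright as the dimmest member. The median member difference was 0.23, against 0.02. DUSP5 was at 12.37, 12.41 and 12.25 in low glucose, against 11.19, 11.11 and 11.13 in high glucose (1.20 ± 0.050, adjusted p 2.24e-07). EGR1 was at 11.48, 11.35 and 11.34 in low glucose, against 11.91, 11.94 and 11.94 in high glucose (-0.54 ± 0.044, adjusted p 1.13e-05). The arrays of both genes separate the groups, in opposite directions. CCN1 rose by 0.80, and of the AP-1 genes FOSL1, JUN, JUND, FOSB, JUNB and FOSL2 were called higher by 0.65, 0.60, 0.56, 0.38, 0.34 and 0.29. FOS was the AP-1 gene called lower, at 8.23, 8.18 and 8.15 in low glucose, against 8.50, 8.86 and 8.76 in high glucose (-0.52 ± 0.10, adjusted p 0.00295). The feedback genes DUSP6 and SPRY2 were also called lower, with differences of -0.51 and -0.22, with KLF10 (-0.37) and NR4A2 (-0.33).

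**Figure D2:**
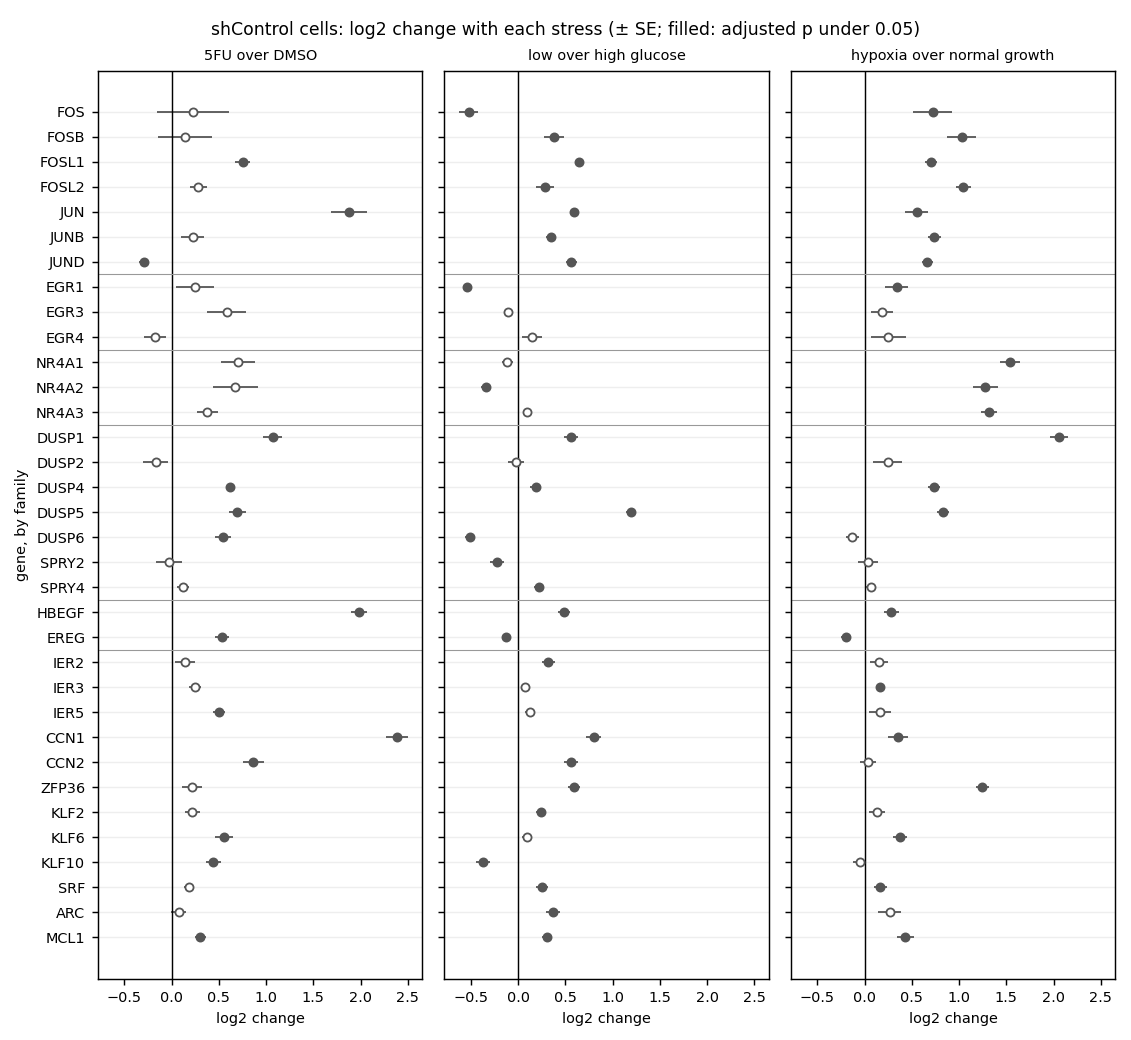
Each point is a member's log2 difference in shControl cells with its SE, for 5FU over DMSO, low over high glucose, and hypoxia over growth, and a filled point was called (adjusted p below 0.05). CCN1 and HBEGF lie farthest right in 5FU at 2.38 and 1.98, DUSP5 in low glucose at 1.20 and DUSP1 in hypoxia at 2.06.

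In shCDK8 cells members of the set differed from shControl cells in both directions. Whether a difference of a hairpin line came from loss of its target or from another feature of that line was not tested. In growth, low glucose and hypoxia the feedback genes DUSP4, DUSP6 and SPRY2 were higher in shCDK8 than in shControl cells, while EGR1, JUNB, JUND, DUSP5 and ZFP36 were lower. In 5FU DUSP4 was the only one of these 8 genes called. In hypoxia DUSP1 and the NR4A genes were also lower in shCDK8 cells. The shControl arrays of each stress enter both these comparisons and those of the stress above.

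In growth, shCDK8 over shControl called 11 members higher and 12 lower of 34, beside 11.4% and 13.5% of all genes tested (24.9% in either direction). In 5FU it called 3 higher and 1 lower, beside 1.59% and 1.91% (3.5%), with 1 call (DUSP4) without shControl 5FU replicate 1 or 2 and 2 calls without shCDK8 5FU replicate 2, and in low glucose 9 higher and 8 lower, beside 12.1% and 10.2% (22.3%). In hypoxia it called 5 higher and 15 lower, beside 4.81% and 2.49% (7.3%), and there the median member difference was -0.40, against -0.07 over all genes. Of the genes as bright as the dimmest member, 35.7% were called in growth, 5.09% in 5FU, 31.9% in low glucose and 10.6% in hypoxia. Leaving out either shCDK8 array in hypoxia left 1 array of that line, and the member calls were lost. With any 1 array of the 2 compared groups left out, the DUSP1 difference stayed between -2.50 and -2.41. Without shControl hypoxia replicate 1 there were 20 calls, beside 10.4% of all genes, and without replicate 2 there were 26, beside 46.4%. Over the 4 experiments, each with its own shControl arrays, 5 members (14.7%) were called higher in 3 or 4 of them, against 2.79% of all genes: DUSP4 in all 4, and DUSP6, FOSL1, KLF10 and SPRY2 in 3. Another 7 members (20.6%) were called lower in 3, against 1.86%: CCN1, DUSP5, EGR1, JUNB, JUND, MCL1 and ZFP36. FOSB, HBEGF and NR4A2 (8.82%) were called in both directions in different experiments, against 1.73% of all genes. Any 3 of the 4 experiments include 5FU or hypoxia, with 2 arrays a group, where calls depended on single arrays as given above. The shares of all genes in these counts are not matched for brightness.

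**Figure D3:**
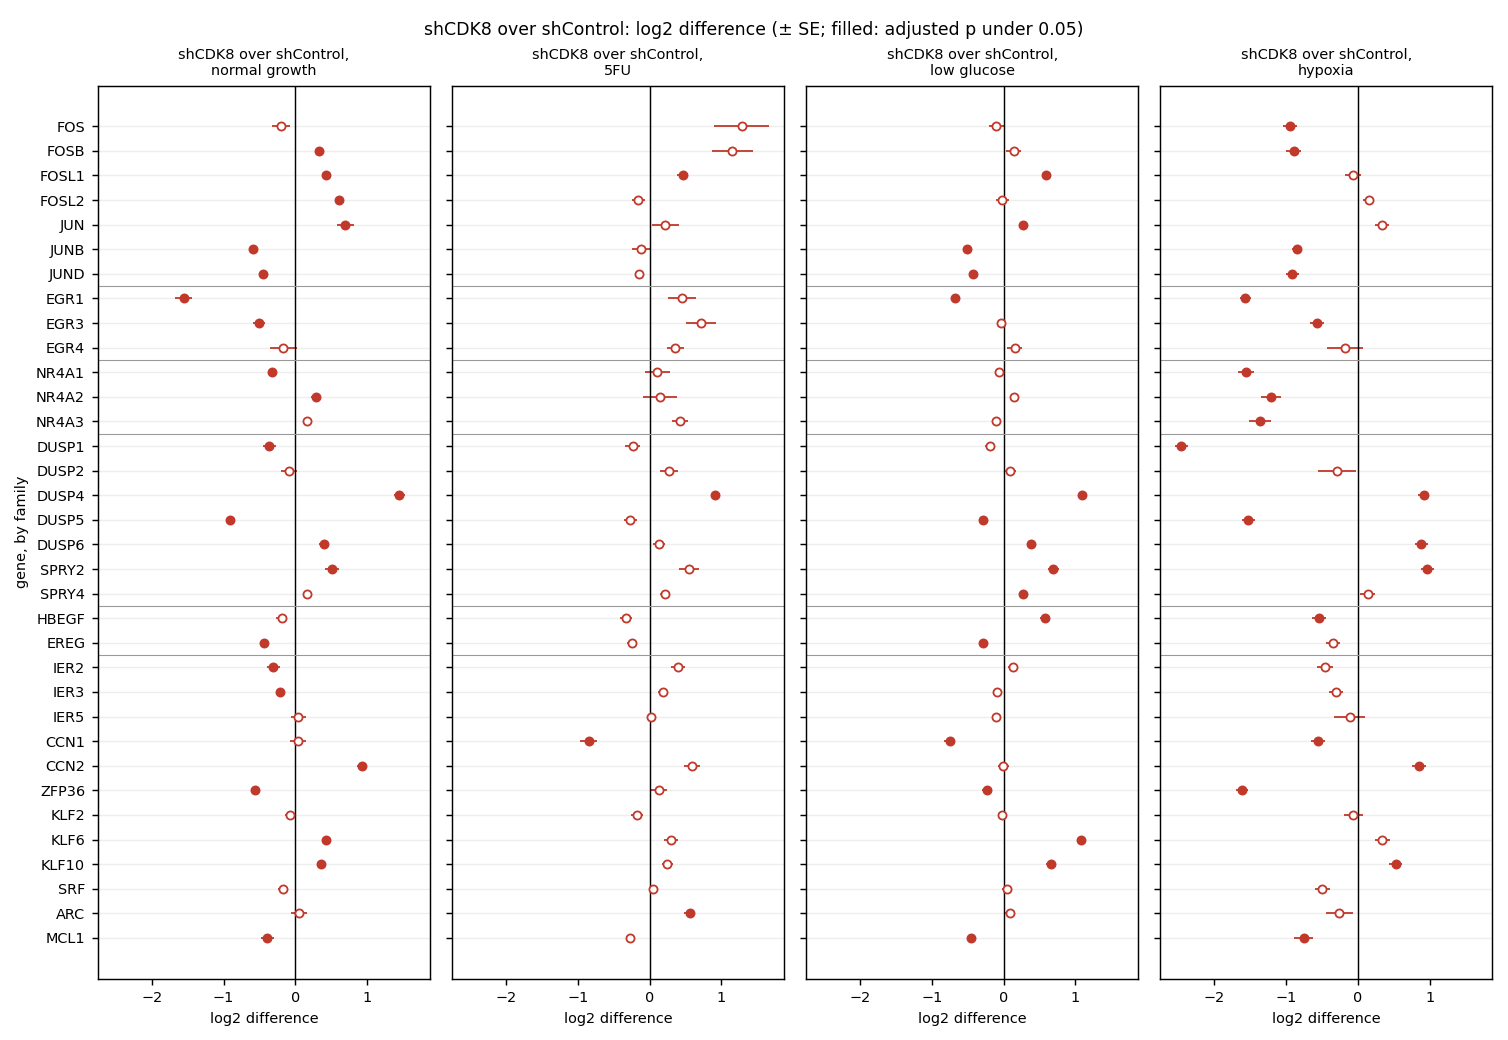
Each point is a member's log2 difference of shCDK8 over shControl with its SE in growth, 5FU, low glucose and hypoxia, and a filled point was called (adjusted p below 0.05). DUSP4 lies to the right of 0 in all 4 panels (1.45, 0.91, 1.09 and 0.92) and DUSP1 lies farthest left in hypoxia (-2.46).

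Fewer members were called in shCDK19 than in shCDK8 cells. In shCDK19 cells DUSP1, HBEGF, JUNB and EGR1 were lower and DUSP4 and FOSL1 higher than in shControl cells in growth. In growth shCDK19 over shControl called 3 members higher and 10 lower, beside 3.67% and 3.4% of all genes tested (7.07% in either direction). In 5FU it called 1 higher and 1 lower, beside 0.576% and 0.261% (0.837%), and in low glucose 7 higher and 9 lower, beside 9.11% and 10.8% (19.9%). In hypoxia limma called 0 members, beside 0.196% of all genes higher and 0.0326% lower (0.228%), 10 above and 5 below shControl at an unadjusted p below 0.05, and 12 members in the fit of all 35 arrays, which called 14.4% of all genes. DUSP4 was called higher in 3 of the 4 experiments and DUSP1 lower in 3, each 2.94% of members, beside 0.391% and 0.109% of all genes. For both genes 5FU was among the 3. Of the genes as bright as the dimmest member, 10.4% were called in growth, 1.18% in 5FU, 28.8% in low glucose and 0.33% in hypoxia. Leaving out any array of the 5FU comparison left 0 calls there, leaving out shControl hypoxia replicate 2 gave 10 calls in hypoxia when 23.5% of all genes were called, and leaving out shControl growth replicate 2 or shCDK19 growth replicate 3 left 8 calls in growth in place of 13.

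**Figure D4:**
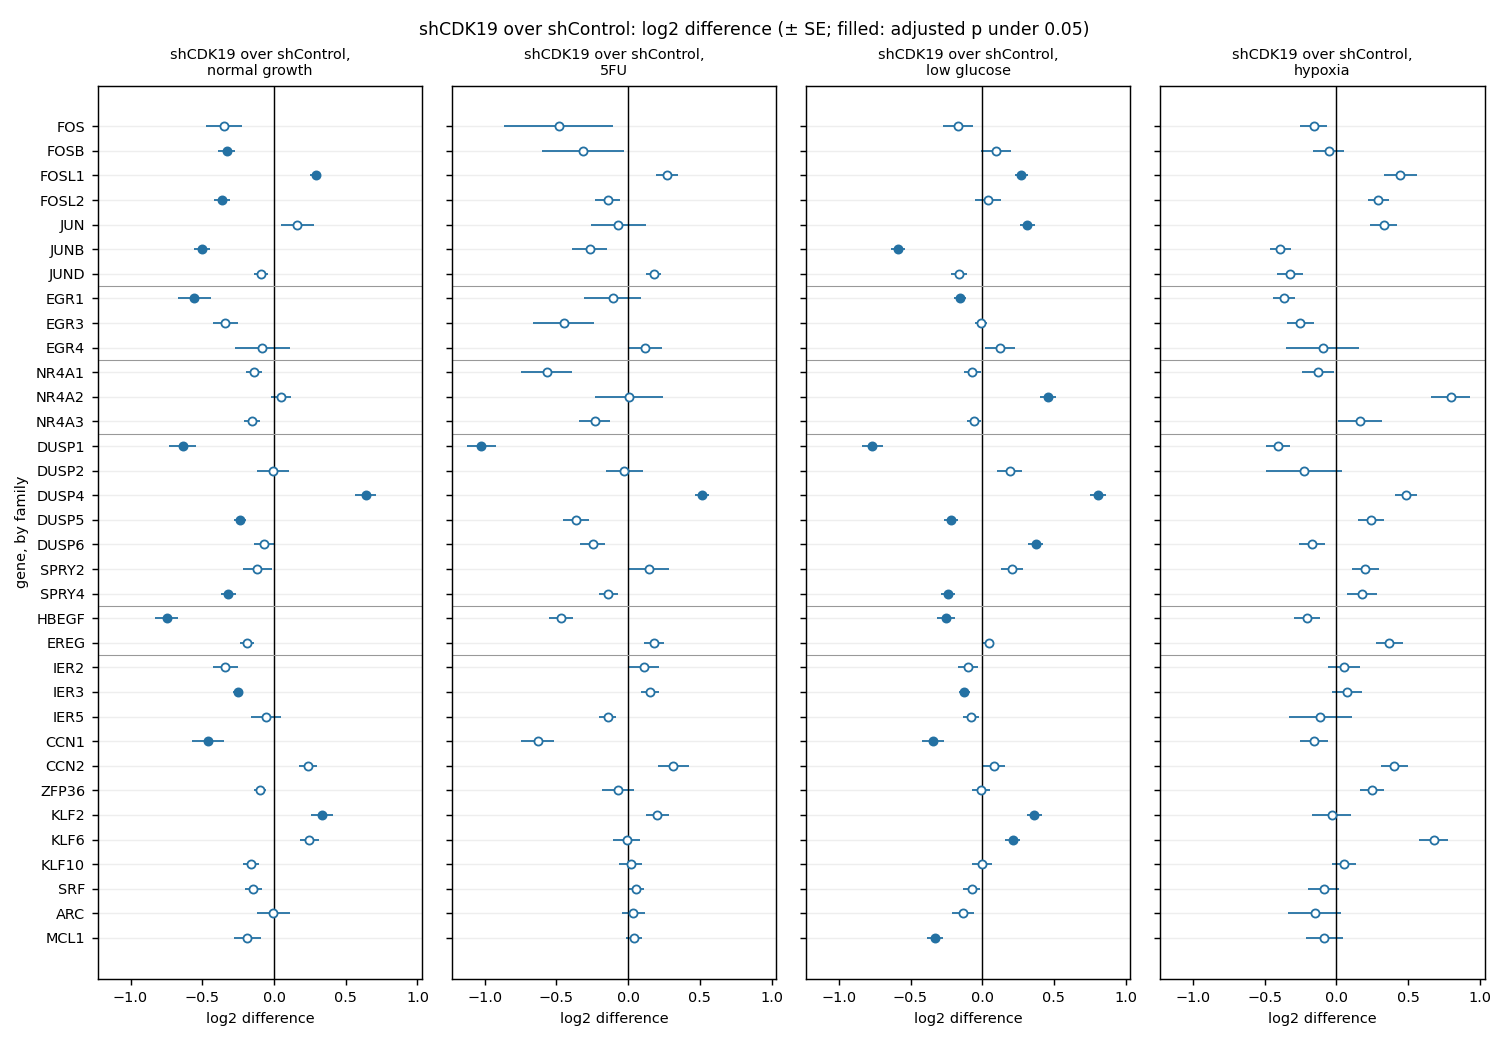
Each point is a member's log2 difference of shCDK19 over shControl with its SE in growth, 5FU, low glucose and hypoxia, and a filled point was called (adjusted p below 0.05). DUSP1 lies left of 0 in all 4 panels (-0.64, -1.02, -0.77 and -0.41) and is filled in 3, and no point is filled in hypoxia.

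The knockdown lines were also set directly against each other. In growth, shCDK8 over shCDK19 called 14 members higher and 7 lower, beside 12.9% and 13.2% of all genes tested (26.1% in either direction). The counts were 7 higher and 3 lower in 5FU, beside 2.22% and 2.92% (5.14%), 9 higher and 7 lower in low glucose, beside 14.7% and 11.2% (26%), and 5 higher and 13 lower in hypoxia, beside 7.26% and 5.09% (12.4%). The lowest of these members in hypoxia were DUSP1 (-2.05), NR4A2 (-2.00), ZFP36 (-1.86), DUSP5 (-1.76) and NR4A3 (-1.53). The highest were DUSP6 (1.06) and SPRY2 (0.77). Of the genes as bright as the dimmest member, 37.4% were called in growth, 7.59% in 5FU, 36.6% in low glucose and 18.2% in hypoxia. Leaving out any 1 array left 0 calls in hypoxia, and 0 in 5FU, apart from 4 without shCDK8 5FU replicate 1.

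Whether a knockdown difference itself changed between growth and a stress was tested as the difference in the stress minus that in growth. All these tests share the growth arrays, and experiment and stress cannot be told apart in them. For shCDK8 the difference moved up in 10 members and down in 3 in 5FU, beside 6.25% and 5.62% of all genes tested (11.9% in either direction), and up in 8 and down in 4 in low glucose, beside 7.78% and 5.06% (12.8%). In hypoxia it moved up in 1 member, DUSP6, and down in 14, beside 9.06% and 2.45% (11.5%). For shCDK19 it moved up in 2 members in 5FU, beside 2.18% of all genes (4% in either direction), 3 in low glucose, beside 0.989% (1.79%), and 8 in hypoxia, beside 1.52% (2.08%), the last becoming 4 without shControl hypoxia replicate 1 or shCDK19 hypoxia replicate 2. It moved down in 0, beside 1.81%, 0.799% and 0.56%, and limma moved 3, 0 and 2 members down at an unadjusted p below 0.05. For shCDK19 in 5FU the called share of members, 5.88%, was near the 6% of genes as bright as the dimmest member. Of those genes, 17.7% were called for the shCDK8 change in 5FU, 18.5% in low glucose and 18% in hypoxia. For the shCDK19 change 2.6% of them were called in low glucose and 3.25% in hypoxia.

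The AP-1 genes encode the FOS and JUN proteins that pair to bind DNA. In shCDK8 cells 4 of the 7 were called higher and 2 lower in growth (24.9% of all genes in either direction), 1 and 0 in 5FU (3.5%), 2 and 2 in low glucose (22.3%), and 0 and 4 in hypoxia (7.3%). In shCDK19 cells the counts were 1 and 3 in growth (7.07%), 0 and 0 in 5FU (0.837%), 2 and 1 in low glucose (19.9%), and 0 and 0 in hypoxia (0.228%).

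JUNB was at 10.01, 10.07 and 9.97 in shCDK8 growth cells and at 10.21, 10.04 and 10.08 in shCDK19 cells, against 10.66, 10.63 and 10.55 in shControl cells. Both lines lay below every control array, with differences of -0.59 ± 0.056 (adjusted p 0.000238) in shCDK8 and -0.50 ± 0.056 (adjusted p 0.00204) in shCDK19 cells. In low glucose JUNB was called lower in both lines, with differences of -0.52 ± 0.048 and -0.59 ± 0.048, and shCDK8 over shCDK19 was 0.07 ± 0.048 there (adjusted p 0.334). JUND was at 10.22 and 10.18 in shCDK8 hypoxia cells, against 11.03 and 11.19 in shControl hypoxia cells (-0.91 ± 0.090, adjusted p 0.0132). It was also called lower in shCDK8 cells in growth (-0.46) and low glucose (-0.42), and was not called in shCDK19 cells in any experiment.

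FOSL1, which encodes FRA1, went the other way. It was at 11.08, 10.97 and 11.05 in shCDK8 growth cells and 10.90, 10.89 and 10.91 in shCDK19 cells, against 10.61, 10.62 and 10.60 in shControl cells, so that the 3 lines did not overlap. It was called higher in shCDK8 cells in growth (0.42 ± 0.039, adjusted p 0.000214), 5FU (0.46 ± 0.077, adjusted p 0.0393) and low glucose (0.59 ± 0.047, adjusted p 1.16e-05), and in hypoxia the difference was -0.07 ± 0.11 (adjusted p 0.702). FOSL2, which encodes FRA2, differed in sign between the lines in growth, 0.60 ± 0.053 in shCDK8 and -0.36 ± 0.053 in shCDK19 cells, both called. JUN was called higher in shCDK8 cells in growth (0.69 ± 0.11) and low glucose (0.27 ± 0.050), and in shCDK19 cells in low glucose (0.31 ± 0.050).

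FOS and FOSB were highest in shCDK8 cells given 5FU, with a wide gap between the arrays of that group. FOS was at 9.28 and 10.49 in shCDK8 and 8.14 and 8.09 in shCDK19 cells in 5FU, against 8.73 and 8.47 in shControl cells. FOSB was at 9.06 and 9.94 in shCDK8 and 8.02 and 8.03 in shCDK19 cells, against 8.34 and 8.35 in shControl cells. Both shCDK8 arrays lay above all others in 5FU, yet neither gene was called (1.28 ± 0.38, adjusted p 0.164 for FOS, and 1.15 ± 0.29, adjusted p 0.108 for FOSB). Without shCDK8 5FU replicate 2 the differences were 0.68 and 0.71. The change of the shCDK8 difference between growth and 5FU was 1.49 for FOS and 0.82 for FOSB, both called, and 0.89 and 0.38 without that array, when FOSB was no longer called (adjusted p 0.232). In hypoxia both genes were lower in shCDK8 than in shControl cells. There FOS was at 8.46 and 8.43 in shCDK8 and 9.21 and 9.25 in shCDK19 cells, against 9.49 and 9.29 in shControl cells (-0.94 ± 0.097 in shCDK8 cells, adjusted p 0.0143). These shCDK8 arrays lay within the range of FOS in shCDK8 growth cells, at 8.40, 8.59 and 8.39.

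The EGR genes encode zinc finger factors that bind GC-rich sites. EGR1 was at 11.14, 11.02 and 11.05 in shCDK8 growth cells and 12.02, 12.08 and 12.11 in shCDK19 cells, against 12.92, 12.50 and 12.46 in shControl cells. The 3 lines did not overlap, and the difference was -1.55 ± 0.12 (adjusted p 7.72e-05) in shCDK8 and -0.56 ± 0.12 (adjusted p 0.0296) in shCDK19 cells. The shCDK19 call was lost without shControl growth replicate 2 (adjusted p 0.0541) and without any shCDK19 growth array (0.0823 to 0.105). In hypoxia EGR1 was at 11.40 and 11.40 in shCDK8 and 12.62 and 12.59 in shCDK19 cells, against 13.00 and 12.93 in shControl cells, and the shCDK8 difference, -1.57 ± 0.074 (adjusted p 0.00388), differed from that in growth by -0.01 ± 0.17 (adjusted p 0.976). In low glucose it was at 10.69, 10.71 and 10.72 in shCDK8 and 11.17, 11.28 and 11.24 in shCDK19 cells, against 11.48, 11.35 and 11.34 in shControl cells. Both lines were again below every control array, with differences of -0.68 ± 0.044 (adjusted p 2.89e-06) and -0.16 ± 0.044 (adjusted p 0.0331). This shCDK19 call, too, was not kept in every fit with 1 array left out.

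In 5FU EGR1 was not lower in shCDK8 cells: it was at 11.90 and 12.44 in shCDK8 and 11.58 and 11.64 in shCDK19 cells, against 11.68 and 11.76 in shControl cells (0.45 ± 0.20, adjusted p 0.342). Without shCDK8 5FU replicate 2 the difference was 0.18. The change of the shCDK8 difference between growth and 5FU was 2.01 ± 0.17 (adjusted p 1.18e-08), and 1.74 to 2.28 with 1 array left out. EGR3 was called lower in shCDK8 cells in growth (-0.51 ± 0.087, adjusted p 0.00424) and hypoxia (-0.57 ± 0.095, adjusted p 0.0386). In 5FU EGR3 was at 8.26 and 8.85 in shCDK8 and 7.47 and 7.32 in shCDK19 cells, against 8.02 and 7.67 in shControl cells, which was called in shCDK8 over shCDK19 (1.16 ± 0.21, adjusted p 0.0415) and not in shCDK8 over shControl (0.71 ± 0.21, adjusted p 0.164). EGR4 was not called in any comparison, with arrays between 7.18 and 8.38.

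**Figure D5:**
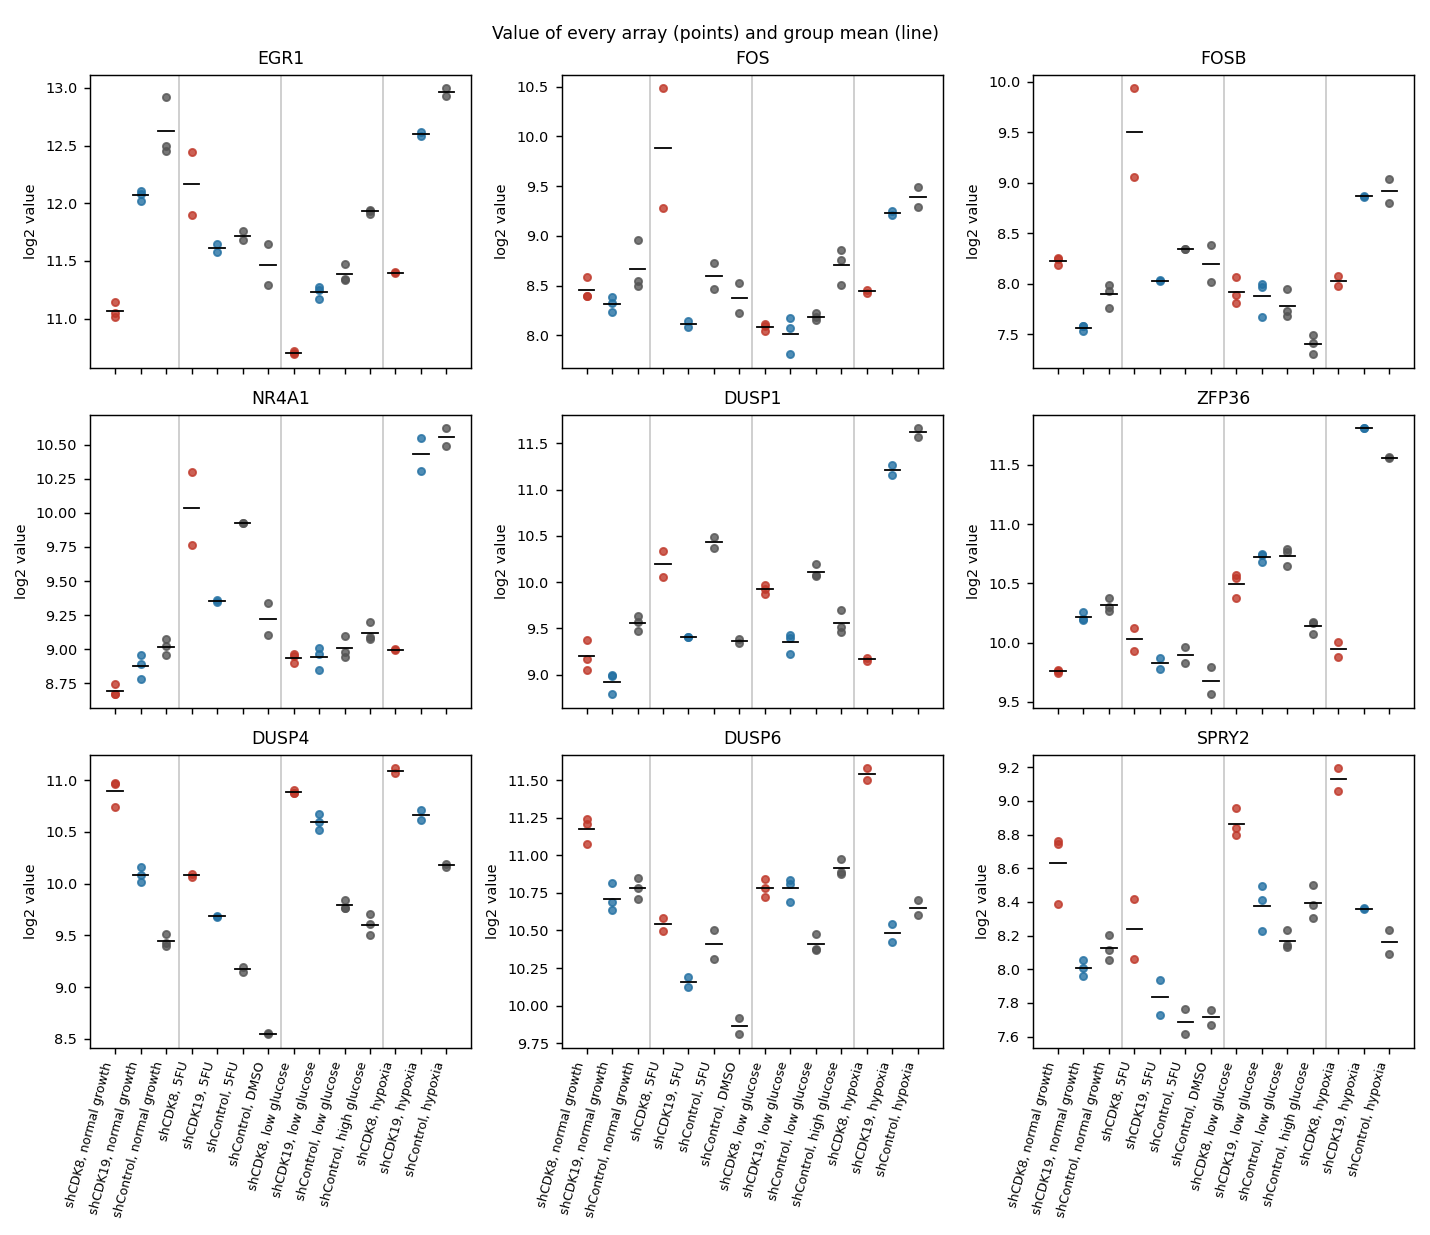
Each point is 1 array's log2 value of EGR1, FOS, FOSB, NR4A1, DUSP1, ZFP36, DUSP4, DUSP6 or SPRY2 in the 14 groups, with a bar at the group mean. DUSP1 lies at 9.18 and 9.14 in shCDK8 hypoxia and at 11.57 and 11.67 in shControl hypoxia, while DUSP4 in shCDK8 cells lies above the shControl arrays in every experiment.

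The NR4A genes encode nuclear receptors that act without a known physiological ligand. All 3 were called lower in shCDK8 cells in hypoxia, beside 2.49% of all genes called lower there. NR4A1 was at 8.99 and 9.00 in shCDK8 and 10.31 and 10.55 in shCDK19 cells in hypoxia, against 10.49 and 10.62 in shControl cells (-1.56 ± 0.11 in shCDK8 cells, adjusted p 0.00785). NR4A3 was at 7.27 and 7.19 in shCDK8 and 8.62 and 8.90 in shCDK19 cells, against 8.44 and 8.74 in shControl cells (-1.37 ± 0.15, adjusted p 0.017). The shCDK8 arrays of both genes lay more than 1 log2 unit below every other hypoxia array, and the shCDK19 arrays overlapped those of shControl. NR4A2 was at 10.27 and 10.14 in shCDK8 and 12.17 and 12.26 in shCDK19 cells, against 11.26 and 11.57 in shControl cells. The shCDK8 difference was -1.21 ± 0.13 (adjusted p 0.0168), and the shCDK19 arrays, above every control array, gave 0.80 ± 0.13 (adjusted p 0.133). The shCDK8 difference moved from growth to hypoxia by -1.24 for NR4A1, -1.49 for NR4A2 and -1.52 for NR4A3, and the shCDK19 difference of NR4A2 by 0.75, all called. Outside hypoxia the calls were smaller: NR4A1 was lower (-0.32) and NR4A2 higher (0.29) in shCDK8 growth cells, and NR4A2 was higher in shCDK19 cells in low glucose (0.46). The shCDK8 growth call of NR4A2 was not kept in every fit with 1 array left out.

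Of the phosphatases, DUSP1 acts on p38, JNK and ERK in the nucleus. In hypoxia it was at 9.18 and 9.14 in shCDK8 and 11.16 and 11.26 in shCDK19 cells, against 11.57 and 11.67 in shControl cells. The shCDK8 difference of -2.46 ± 0.085 (adjusted p 0.00214), 5.49-fold lower, left both shCDK8 arrays within the range of shCDK8 cells in growth. In growth it was at 9.05, 9.38 and 9.16 in shCDK8 and 8.98, 9.00 and 8.79 in shCDK19 cells, against 9.63, 9.57 and 9.47 in shControl cells. Both were below every control array, with differences of -0.36 ± 0.096 (adjusted p 0.0292) and -0.64 ± 0.096. The shCDK8 call in growth was not kept in every fit with 1 array left out. In 5FU the order of the lines differed: DUSP1 was at 10.05 and 10.34 in shCDK8 and 9.41 and 9.41 in shCDK19 cells, against 10.49 and 10.37 in shControl cells. There shCDK19 was lower, with a difference of -1.02 ± 0.10 (adjusted p 0.0202), and shCDK8 was not called (-0.23 ± 0.10, adjusted p 0.332). In low glucose it was likewise called in shCDK19 (-0.77 ± 0.074, adjusted p 7.6e-05) and not in shCDK8 cells (-0.19 ± 0.074, adjusted p 0.101), and shCDK8 over shCDK19 was 0.58 ± 0.074 (adjusted p 0.000304).

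DUSP4, a nuclear ERK phosphatase, was the member called higher in shCDK8 cells in all 4 experiments. It was at 10.74, 10.96 and 10.98 in shCDK8 growth cells and 10.16, 10.08 and 10.01 in shCDK19 cells, against 9.51, 9.40 and 9.43 in shControl cells. The differences were 1.45 ± 0.073 (adjusted p 1.08e-05) and 0.64 ± 0.073 (adjusted p 0.0022), with no overlap between the 3 lines. In 5FU it was at 10.09 and 10.07 in shCDK8 and 9.69 and 9.68 in shCDK19 cells, against 9.14 and 9.20 in shControl cells, and in hypoxia at 11.12 and 11.07 in shCDK8 and 10.61 and 10.71 in shCDK19 cells, against 10.16 and 10.19 in shControl cells. The same order of lines held in low glucose, at 1.09 ± 0.057 in shCDK8 and 0.81 ± 0.057 in shCDK19 cells. The shCDK19 difference in hypoxia, 0.49 ± 0.080, was not called (adjusted p 0.13). The shCDK8 difference was smaller than in growth in each stress, with changes of -0.54 in 5FU, -0.35 in low glucose and -0.53 in hypoxia, all called.

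DUSP6, the cytoplasmic ERK phosphatase, and SPRY2, an inhibitor of receptor signalling, were higher in shCDK8 than in shControl cells in growth, low glucose and hypoxia. DUSP6 was called higher in shCDK19 cells too in low glucose. There it was at 10.72, 10.79 and 10.84 in shCDK8 and 10.83, 10.81 and 10.69 in shCDK19 cells, against 10.37, 10.37 and 10.48 in shControl cells. In hypoxia DUSP6 was at 11.58 and 11.50 in shCDK8 and 10.54 and 10.42 in shCDK19 cells, against 10.60 and 10.70 in shControl cells (0.89 ± 0.091, adjusted p 0.0143). SPRY2 was at 9.20 and 9.06 in shCDK8 and 8.36 and 8.36 in shCDK19 cells, against 8.09 and 8.23 in shControl cells (0.97 ± 0.095, adjusted p 0.0132). The shCDK8 arrays of both lay above all other hypoxia arrays. DUSP5, a nuclear ERK phosphatase like DUSP4, moved against it. It was at 10.51, 10.45 and 10.45 in shCDK8 growth cells and 11.18, 11.14 and 11.09 in shCDK19 cells, against 11.35, 11.36 and 11.42 in shControl cells, and in hypoxia at 10.75 and 10.61 in shCDK8 and 12.45 and 12.44 in shCDK19 cells, against 12.26 and 12.15 in shControl cells. The shCDK8 differences were -0.91 ± 0.041 (adjusted p 6.79e-06) and -1.52 ± 0.091 (adjusted p 0.00564), and -0.28 ± 0.050 in low glucose. SPRY4, of the same family as SPRY2, was called lower in shCDK19 cells in growth (-0.32) and low glucose (-0.24) and higher in shCDK8 cells in low glucose (0.27). DUSP2 was not called in any comparison.

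The ligand HBEGF was at 9.14, 9.42 and 9.37 in shCDK8 and 8.81, 8.79 and 8.65 in shCDK19 growth cells, against 9.47, 9.52 and 9.52 in shControl cells. Only the shCDK19 difference was called (-0.75 ± 0.079, adjusted p 0.00153), and shCDK8 over shCDK19 was 0.56 ± 0.079 (adjusted p 0.00171). In low glucose it was at 10.66, 10.70 and 10.83 in shCDK8 and 9.91, 9.97 and 9.82 in shCDK19 cells, against 10.17, 10.18 and 10.12 in shControl cells, so that the lines lay on opposite sides of the control. Both were called, at 0.58 ± 0.063 (adjusted p 0.000113) and -0.25 ± 0.063 (adjusted p 0.0177). The shCDK19 call was not kept in every fit with 1 array left out. In hypoxia HBEGF was called lower in shCDK8 cells (-0.54 ± 0.091, adjusted p 0.0396). EREG was called lower in shCDK8 cells in growth (-0.44 ± 0.049, adjusted p 0.000518) and low glucose (-0.29 ± 0.036, adjusted p 0.000301), and was not called in shCDK19 over shControl cells.

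ZFP36 was at 10.01 and 9.88 in shCDK8 and 11.81 and 11.81 in shCDK19 cells in hypoxia, against 11.55 and 11.56 in shControl cells (-1.62 ± 0.081 in shCDK8 cells, adjusted p 0.00418). The shCDK8 arrays lay far below the others and the shCDK19 arrays above the controls, where the difference of 0.25 ± 0.081 was not called (adjusted p 0.316). ZFP36 was also called lower in shCDK8 cells in growth (-0.56) and low glucose (-0.23), the latter not in every fit with 1 array left out. CCN1 and CCN2 encode related matricellular proteins and differed. CCN1 was at 9.81 and 10.16 in shCDK8 and 10.16 and 10.25 in shCDK19 cells in 5FU, against 10.82 and 10.85 in shControl cells (-0.85 ± 0.11 in shCDK8 cells, adjusted p 0.0231, and -0.63 ± 0.11 in shCDK19 cells, adjusted p 0.0878). The arrays of both knockdown lines lay below both control arrays and above the DMSO arrays, at 8.46 and 8.44. In growth CCN1 differed by 0.04 ± 0.11 in shCDK8 cells (adjusted p 0.898), and in low glucose by -0.75 ± 0.077 (adjusted p 7.8e-05). In shCDK19 cells CCN1 was called lower in growth, at 7.71, 7.67 and 7.69, against 8.28, 8.05 and 8.11 in shControl cells. It was also called lower there in low glucose, at 8.65, 8.74 and 8.44, against 8.90, 9.06 and 8.89. The shCDK19 growth call of CCN1 was not kept in every fit with 1 array left out. CCN2 was called higher in shCDK8 cells in growth (0.92 ± 0.066) and hypoxia (0.85 ± 0.096), and differed by -0.01 ± 0.075 in low glucose (adjusted p 0.98).

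KLF6, a zinc finger factor, was at 10.04, 10.10 and 10.06 in shCDK8 and 9.21, 9.27 and 9.15 in shCDK19 cells in low glucose, against 9.05, 8.92 and 9.01 in shControl cells. The shCDK8 arrays stood well above both other lines (1.07 ± 0.053, adjusted p 4.01e-07), and shControl cells in low over high glucose differed by 0.10 ± 0.053 (adjusted p 0.214). KLF10, a TGF-beta inducible repressor, was called higher in shCDK8 cells in growth (0.35), low glucose (0.66) and hypoxia (0.53). KLF2 was called higher in shCDK19 cells in growth (0.33) and low glucose (0.36). MCL1, which opposes apoptosis, was called lower in shCDK8 cells in growth (-0.39), low glucose (-0.46) and hypoxia (-0.76), and in shCDK19 cells in low glucose (-0.33). ARC was called in shCDK8 cells in 5FU alone, higher by 0.56 ± 0.081 (adjusted p 0.0274). SRF itself was called in no comparison of a knockdown line with shControl, its lowest shCDK8 difference being -0.49 ± 0.11 in hypoxia (adjusted p 0.0656), though that difference was called lower than in growth (-0.32). IER5 was called in 5FU over DMSO (0.50 ± 0.061) and in no knockdown comparison. IER2 and IER3 were called lower in shCDK8 growth cells (-0.31 and -0.21), and IER3 also in shCDK19 cells in growth (-0.25) and low glucose (-0.12). With 1 array left out, the shCDK8 growth calls of MCL1 and IER2 were not kept in every fit. Nor was the shCDK19 call of IER3 in low glucose.

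The receptors, adaptors and kinases that lie upstream of the set were counted as a list of 30 genes, of which 25 were tested. Among shControl cells 3 were called higher and 4 lower in 5FU over DMSO (28% of the list, beside 11.5% of all genes), 10 and 3 in low over high glucose (52%, beside 31.2%), and 5 and 7 in hypoxia over growth (48%, beside 47.8%). In shCDK8 cells 4 were called higher and 8 lower in growth (48%, beside 24.9%), 0 and 4 in 5FU (16%, beside 3.5%), 6 and 4 in low glucose (40%, beside 22.3%), and 1 and 2 in hypoxia (12%, beside 7.3%). In shCDK19 cells 2 and 0 were called in growth (8%, beside 7.07%), 2 and 4 in low glucose (24%, beside 19.9%), and 0 in 5FU and hypoxia. The list's shares in hypoxia over growth and in shCDK19 growth and low glucose were near those of all genes. In shCDK8 hypoxia its 12% was near the 10.6% of genes as bright as the dimmest member. The RAF family kinase ARAF was called lower in shCDK8 cells in every experiment, with differences of -1.73 ± 0.052 in growth (adjusted p 8.26e-07), -1.87 ± 0.066 in 5FU, -1.66 ± 0.049 in low glucose and -2.12 ± 0.10 in hypoxia. The ligand TGFA rose by 1.32 in 5FU over DMSO, and the adaptor SHC1 was higher by 0.68 in shCDK8 than in shControl cells in hypoxia. Of 24 further feedback and serum response genes 22 were tested, and 8 were called higher and 1 lower in 5FU over DMSO (40.9% of the list, beside 11.5% of all genes), 12 and 5 in low over high glucose (77.3%, beside 31.2%), and 12 and 2 in hypoxia over growth (63.6%, beside 47.8%). In shCDK8 cells 4 were called higher and 4 lower in growth (36.4%, beside 24.9%), 2 and 0 in 5FU (9.09%, beside 3.5%), 7 and 5 in low glucose (54.5%, beside 22.3%), and 1 and 5 in hypoxia (27.3%, beside 7.3%). In shCDK19 cells 4 and 3 were called in growth (31.8%, beside 7.07%), 2 and 0 in 5FU (9.09%, beside 0.837%), 6 and 6 in low glucose (54.5%, beside 19.9%), and 0 in hypoxia. In hypoxia the GTP-binding gene GEM (-1.84 ± 0.13, adjusted p 0.00764) and the stress factor gene ATF3 (-0.84) were called lower in shCDK8 cells, and RHOB was called higher (1.04). SPRY1, of the Sprouty family, was called higher in shCDK19 cells in growth (0.89) and low glucose (1.14).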

How the data were processed

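The deposited values come as 1 column for each of 35 arrays. They are log2 signals per array row as the authors deposited them; the scale was judged from the values, whose floor of 4.32 is the log2 of 20, and background correction, summarisation and normalization are not stated by any label or header used here. Partek is named per the submitters' processing notes. Of 32321 rows, 19158 carried 1 gene symbol in the platform annotation, 1388 several and 11775 none, which left 18404 genes with 1 row each. No further normalization and no filter on low values was applied, and all per-sample columns were used.

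Group means were fitted to the arrays of each experiment with limma 3.58.1 in R 4.3.3 (lmFit and eBayes, with the data.table package, version 1.17.8), and differences of effects and hypoxia over growth were fitted to all 35 arrays. P-values were adjusted over all genes by Benjamini-Hochberg, with calls at 0.05. All members are named, and of the other pathway genes at most 3 in each direction per comparison, those with the largest change among called genes whose arrays did not overlap. The members and lists were chosen with earlier results of these data known. The fits were tested on simulated data with known changes. Alternatives were median scaling, a filter on dim genes, the arrays in the fit, a one-way analysis of variance without moderation (the test the design text names), a replicate block, and leaving out each array. Same-numbered arrays of the growth experiment correlated between -0.62 and 0.37 in their deviations, so the numbers were not taken to pair samples. The number of arrays limits the precision. RefSeq promoter windows of GRCh38.p14 were matched by symbol.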

Additional observations from a re-analysis of the deposited data

Results flagged for a closer look

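In these members the difference of a knockdown line from shControl changed between a stress and normal growth by the test of the change itself (limma, adjusted over all genes), given as the log2 difference in the stress minus that in growth. All use the same growth arrays, and experiment and stress cannot be told apart in them.

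For shCDK8 cells in hypoxia the change was -2.09 in DUSP1, -1.52 in NR4A3, -1.49 in NR4A2, -1.24 in NR4A1, -1.23 in FOSB, -1.06 in ZFP36, -0.62 in DUSP5, -0.59 in CCN1, -0.53 in DUSP4, -0.49 in FOSL1, -0.45 in FOSL2, -0.45 in JUND, -0.35 in HBEGF and -0.32 in SRF, and 0.49 in DUSP6.

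For shCDK8 cells in 5FU it was 2.01 in EGR1, 1.49 in FOS, 1.22 in EGR3, 0.82 in FOSB, 0.70 in IER2, 0.69 in ZFP36, 0.64 in DUSP5, 0.47 in JUNB, 0.40 in IER3 and 0.32 in JUND, and -0.88 in CCN1, -0.76 in FOSL2 and -0.54 in DUSP4. The values of FOS, FOSB and JUNB were 0.89, 0.38 and 0.29 without shCDK8 5FU replicate 2.

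For shCDK8 cells in low glucose it was 0.87 in EGR1, 0.77 in HBEGF, 0.64 in KLF6, 0.62 in DUSP5, 0.47 in EGR3, 0.43 in IER2, 0.32 in ZFP36 and 0.30 in KLF10, and -0.93 in CCN2, -0.79 in CCN1, -0.62 in FOSL2 and -0.35 in DUSP4.

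For shCDK19 cells in hypoxia it was 0.75 in NR4A2, 0.66 in FOSL2, 0.56 in EREG, 0.54 in HBEGF, 0.50 in SPRY4, 0.48 in DUSP5, 0.43 in KLF6 and 0.33 in IER3. In low glucose it was 0.50 in HBEGF, 0.44 in DUSP6 and 0.40 in FOSL2, and in 5FU 0.40 in IER3 and 0.37 in EREG. In 5FU the called share of members, 5.88%, was near the 6% of genes as bright as the dimmest member.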

How the results depend on the processing

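Over all alternatives no member's difference that was called changed sign, and the causes of the moved counts were not tested. Counts are of members called, of 34. With each array's median subtracted, shCDK8 over shControl in 5FU called 7 in place of 4, and the changes of the shCDK19 difference called 0 in 5FU in place of 2, 0 in low glucose in place of 3 and 4 in hypoxia in place of 8. Leaving out dim genes gave 8 for shCDK8 in 5FU. Fitting all 35 arrays together gave 18 for shCDK8 in 5FU, 10 for shCDK19 in 5FU in place of 2, 17 for shCDK8 over shCDK19 in 5FU in place of 10, and 12 for shCDK19 in hypoxia in place of 0. Fitting only the groups compared gave 14 for hypoxia over growth in place of 22, 5 for the change of the shCDK19 difference in low glucose, 7 for that of shCDK8 in hypoxia in place of 15, and 0 for that of shCDK19 in hypoxia. Without moderation the counts were 1 for shCDK8, 1 for shCDK19 and 1 for shCDK8 over shCDK19 in 5FU, 7 for shCDK8 in hypoxia in place of 20 and 8 for shCDK8 over shCDK19 in hypoxia in place of 18.

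With the replicate block the counts were 7 for shCDK19 in growth in place of 13, 2 for shCDK8, 0 for shCDK19 and 2 for shCDK8 over shCDK19 in 5FU, 8 for shCDK8 in hypoxia and 10 for shCDK8 over shCDK19 in hypoxia, and every other count stayed within 1.5 times. An array's best match was the array of its own number for 2 of 9 arrays in growth, 6 of 8 in 5FU, 7 of 12 in the glucose experiment and 2 of 6 in hypoxia.

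With 1 array left out, where a group of 2 leaves a lone array assumed to vary like the others, the counts ran from 3 to 13 for 5FU over DMSO (15), 1 to 4 for shCDK8 in 5FU (4), 0 to 0 for shCDK19 in 5FU (2), 0 to 4 for shCDK8 over shCDK19 in 5FU (10), 8 to 10 for shCDK19 in growth (13), 0 to 26 for shCDK8 in hypoxia (20), 0 to 10 for shCDK19 in hypoxia (0), 0 to 0 for shCDK8 over shCDK19 in hypoxia (18) and 4 to 12 for the change of the shCDK19 difference in hypoxia (8), the full count in parentheses. The remaining counts stayed within 1.5 times. The change of the shCDK8 difference in hypoxia ran from 13 to 18, with 13 of its 15 members called in every such fit. Groups of 2 arrays limit what the 5FU and hypoxia experiments can show, and a member that was not called was not shown to be equal between lines.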

Other observations

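The group in which a member's mean was highest differed between genes. Of the 34 members, 10 were highest in shCDK8 cells given 5FU (ARC, CCN2, DUSP2, EGR3, EGR4, FOS, FOSB, IER2, IER5 and JUN). In shCDK19 hypoxia cells 9 were highest (DUSP5, EREG, FOSL1, FOSL2, IER3, NR4A2, NR4A3, SPRY4 and ZFP36), and in shControl hypoxia cells 6 (DUSP1, EGR1, JUNB, JUND, MCL1 and NR4A1). In shCDK8 hypoxia cells 4 were highest (DUSP4, DUSP6, KLF10 and SPRY2). CCN1 and HBEGF were highest in shControl cells given 5FU, KLF2 and SRF in shCDK19 cells given 5FU, and KLF6 in shCDK8 cells in low glucose. The lowest means lay in shControl cells in DMSO for 9 members and in high glucose for another 9, in shCDK8 growth cells for 6 and in shCDK19 growth cells for 4. These orders run across experiments and are descriptions with no test.

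Among the other ERK feedback and serum response genes in shControl cells, SPRY1 was higher by 1.77, GEM by 1.62 and the urokinase receptor gene PLAUR by 0.87 in hypoxia over growth. That comparison runs across experiments. ATF3 rose by 0.96 and the phosphatase gene DUSP14 by 1.35 in 5FU over DMSO, and ATF3 by 0.97 and MAFF, a small MAF factor, by 0.91 in low over high glucose.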
